A study of Homo sapiens with 8 samples.

Results

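SW620 was compared with HT29 and HCT116, 3 established human colon cancer lines whose transcripts were measured on Affymetrix Human Gene 1.0 ST arrays, which read each gene with a set of short probes. The comparison holds 6 of the 8 arrays of the series, and the 2 arrays of COLO741 were left out. The labels describe SW620 as a colon carcinoma of lymph node metastasis, HT29 as a colon adenocarcinoma and HCT116 as a colon carcinoma. The design text of the series lists SW480 instead of SW620, a conflict that could not be settled here. The names on the samples are used throughout. Each line gave 1 array of sorted cells labelled ABCB5-negative and 1 labelled ABCB5-positive, all grown in RPMI medium with serum and antibiotics and sorted with an antibody against the transporter ABCB5. The 2 SW620 arrays were set against the 4 others taken as 1 group, over all genes measured, with the sorted population as a covariate. Every line is a single line of 1 tumour, so a difference describes these lines.

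Most colorectal tumours carry mutations that keep the Wnt pathway active, in which beta-catenin enters the nucleus and, with factors of the TCF and LEF family, turns on its target genes. Several of these targets, such as NKD1, NOTUM and AXIN2, encode inhibitors that feed back on the pathway. Colon epithelium is held together by tight junctions and desmosomes, and loss of these with a gain of vimentin and of the repressors SNAI2 and ZEB1 is known as the epithelial-mesenchymal transition. The EGF receptor and its ligands, among them epiregulin, are a main growth signal of the same tissue.

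Both arrays of a line correlated at 0.994 to 0.996 over all probe sets, against 0.958 to 0.965 between different lines. The labels do not say that the arrays of a line are separate cultures, so the p-values below measure only the spread between these 6 arrays, part of which may be technical. An exact permutation test of 2 arrays against 4 cannot go below p = 0.0667, so single genes rest on limma, which fits all genes together. As a measure of dim signal, the 381 olfactory receptor probe sets, of a gene family known from the nose, had a 95th percentile of 7.59 on the log2 scale over the 6 arrays, called the dim limit below. ABCB5 itself measured 5.24 to 5.69 over the 6 arrays, less than the median of 5.77 of those probe sets, and was left out of the tests as dim. Of 11 colon epithelium markers, 10 were above that limit on each SW620 array, with EPCAM at 13.43 and 13.50 and KRT8 at 14.42 and 14.58. The exception on SW620 was CDH17 at 5.74 and 6.06. Of 10 markers of T and B lymphocytes, 1 and 2 were above it on the ABCB5-negative and ABCB5-positive SW620 arrays, of 6 melanocyte markers 0 and 0, and of 5 endothelial markers 0 and 1. Of 6 fibroblast markers, 5 and 4 were above it, as were 3 to 5 on the other arrays. Among these LUM, the matrix protein lumican, measured 10.30 and 10.52 in SW620, 8.002 and 7.68 in HT29 and 5.67 and 5.61 in HCT116 and did not pass (limma adjusted p = 0.106), and COL1A1 measured 8.81 to 9.19 on all 6. Of 10 phagocyte markers, 4 were above it on the ABCB5-negative SW620 array and 8 on the ABCB5-positive one.

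Of 16768 genes tested, 1046 (6.24%) passed an adjusted p of 0.05 in limma, 661 of them (3.94%) higher in SW620 and 385 (2.30%) lower. In all 1046 both SW620 arrays lay beyond all 4 other arrays. Over all genes tested, the SW620 arrays lay above the 4 others in 3489 genes (20.8%) and below them in 4265 (25.4%). The median difference of the genes that passed was 1.19 on the log2 scale without regard to sign, and 635 differed by at least 1 log2 unit, which is 2-fold. In 204 of the higher genes all 4 comparison arrays lay under the dim limit, and in 71 of the lower genes both SW620 arrays did. The test asks that HT29 and HCT116 lie close together against their distance to SW620. With the line as a random block, which treats both arrays of a line as related, 159 genes passed, all among the 1046. With the line as a factor, so that the error is the spread within lines, 7857 passed. Leaving out either SW620 array left 0 genes past the threshold in limma, with 1864 genes at an unadjusted p under 0.05 without the ABCB5-negative array and 1584 without the ABCB5-positive one.

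**Figure D1:**
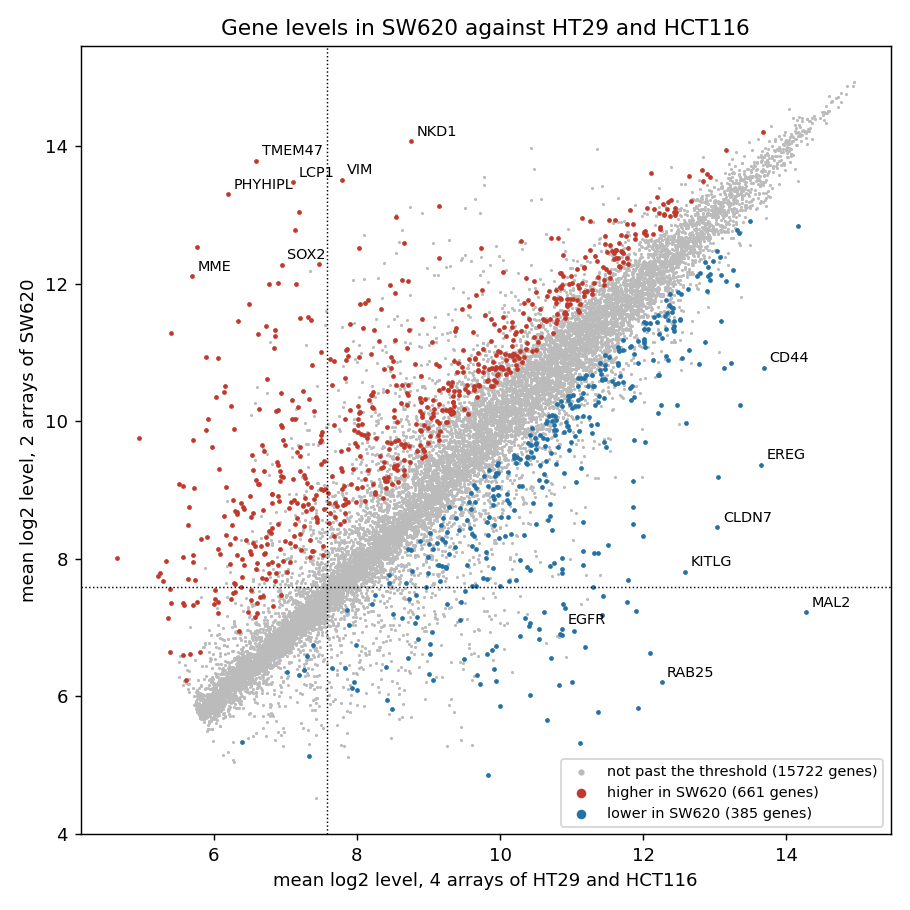
Mean log2 level of each of the 16768 genes tested on the 2 SW620 arrays (vertical axis) against the mean on the 4 arrays of HT29 and HCT116 (horizontal axis), with the 661 genes past the threshold and higher in SW620 in red, the 385 lower in blue and the dotted lines at 7.59, the 95th percentile of olfactory receptor probe sets. The genes farthest from the diagonal lie at the dim end of 1 axis, such as TMEM47 and PHYHIPL at the upper left and RAB25 and MAL2 at the lower right.

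The largest differences were between a bright gene in SW620 and a dim one in the other lines. Array values are log2 levels, and each pair gives the ABCB5-negative array first. Where 1 group was dim, its mean was replaced by the dim limit, and the fold is given as a lower bound. TMEM47, a membrane protein of cell junctions on chromosome X, measured 13.84 and 13.73 in SW620, 6.66 and 6.73 in HT29 and 6.23 and 6.78 in HCT116. It was bright on both SW620 arrays and dim on the other 4, a difference of 7.19 ± 0.18 (SE, 2 arrays against 4, limma adjusted p = 0.000918), or at least 73.6-fold. PHYHIPL followed with 13.34 and 13.27 in SW620 against 6.03 to 6.33 on the other arrays, a difference of 7.11 ± 0.10. ABHD12B, of the hydrolase family its name gives, measured 12.57 and 12.50 against 5.67 to 5.83. MME, the cell surface peptidase neprilysin, differed by 6.41 ± 0.16, or at least 23.0-fold. In these 4 genes, as in all that passed, the groups did not overlap, and the sorted populations of SW620 lay close together.

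Other genes of this rank are known from neurons, mesenchyme or progenitor cells. SOX2, a transcription factor of stem and neural progenitor cells, measured 12.47 and 12.08 in SW620 and 6.75 to 7.16 elsewhere, a difference of 5.33 ± 0.17 (limma adjusted p = 0.00154). ROBO1, a receptor of the axon guidance protein Slit, measured 13.11 and 12.97 in SW620 and 6.96 to 7.36 elsewhere. CALB1, the calcium buffer calbindin, differed by 5.88 ± 0.16 and GRIK2, a kainate receptor subunit, by 5.12 ± 0.17. SERPINF1, the secreted pigment epithelium-derived factor, differed by 5.65 ± 0.11, at least 36.8-fold. HAS2, a hyaluronan synthase, differed by 5.21 ± 0.39 and HDGFL3 by 5.23 ± 0.25. VIM, LCP1, NKD1 and PROX1 complete the 15 largest and are described with their groups. Of these 15 genes, 14 also passed with the line as a random block, whereas PROX1 did not (adjusted p = 0.0828).

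On the lower side, MAL2, a membrane protein of transport to the apical surface, measured 7.24 and 7.22 in SW620, 14.59 and 14.58 in HT29 and 13.97 and 13.95 in HCT116. It was among the brightest signals of both comparison lines and dim in SW620, at least 103-fold lower (difference -7.05 ± 0.27, limma adjusted p = 0.00185). FAM83B measured 5.75 and 5.91 in SW620 and 11.40 to 12.56 elsewhere. ADGRF1, an adhesion receptor, differed by -5.80 ± 0.20 and NT5E, the ectonucleotidase CD73, by -5.59 ± 0.26. NECTIN3, an adhesion protein of adherens junctions, measured 6.46 and 6.81 in SW620, 11.51 and 11.14 in HT29 and 12.84 and 12.86 in HCT116. Both groups stood apart, with HCT116 above HT29.

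TFPI, an inhibitor of the coagulation pathway, PLA2G4A, the cytosolic phospholipase that frees arachidonic acid, and NFIB, a transcription factor, were higher in HT29 than in HCT116 and dim in SW620. PLA2G4A measured 4.92 and 4.78 in SW620, 10.81 and 10.30 in HT29 and 9.10 and 9.12 in HCT116. TFPI differed by -5.00 ± 0.84 and NFIB by -4.65 ± 0.77. GULP1, an adaptor of engulfment, and the long noncoding RNA UCA1 were lower in SW620 with HCT116 the highest, with differences of -4.81 ± 0.66 and -4.40 ± 0.60. CD55, which protects cells from complement, measured 6.58 and 7.92 in SW620, where the sorted populations stood 1.34 apart, and 11.57 to 12.24 elsewhere. PUDP, a phosphatase on chromosome X, differed by -4.47 ± 0.47. AP1M2, an adaptor subunit of sorting in polarised epithelial cells, was named after its values were seen and measured 6.84 and 7.06 in SW620 against 10.84 to 11.13 elsewhere. Of the 15 largest on the lower side, RAB25, CLDN7 and KITLG among them, 9 also passed with the line as a random block, whereas NECTIN3, TFPI, GULP1, NFIB, CD55 and UCA1 did not (adjusted p of 0.0505 to 0.141).

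Targets and feedback genes of the Wnt pathway held more genes past the threshold than any other of the 34 lists. Of 35 tested, 12 were higher in SW620, 3 were lower and 20 did not pass, and the median difference was 1.18 against -0.06 over all genes tested. The share past the threshold was 42.9%, against 6.24% of all genes. With the line as a random block 8 of the 15 passed, NKD1, NOTUM, LEF1, APCDD1, SMOC2, TNFRSF19, LGR6 and CD44, and the other 7 did not (adjusted p of 0.0520 to 0.147). The list was chosen with earlier results of these data known.

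Among the inhibitors that Wnt signalling turns on, NKD1, which acts on the signalling protein Dishevelled, measured 14.14 and 14.003 in SW620, 8.27 and 8.53 in HT29 and 9.08 and 9.14 in HCT116. Both SW620 arrays were far above the others, by 5.32 ± 0.31 (SE, limma adjusted p = 0.00401), or 39.9-fold. NOTUM, an enzyme that strips the lipid from Wnt proteins, measured 12.97 and 12.96 in SW620, 8.12 and 8.27 in HT29 and 8.99 and 8.80 in HCT116, or 21.4-fold higher. APCDD1, a membrane inhibitor of Wnt, measured 11.57 and 11.83 in SW620 against 7.87 to 8.19 elsewhere. Its difference of 3.66 ± 0.16 was 12.6-fold. NKD2, the partner of NKD1, differed less, by 1.28 ± 0.13 (limma adjusted p = 0.0165).

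Among transcription factors, LEF1, which carries beta-catenin to DNA, measured 10.31 and 10.54 in SW620 and at most 6.22 elsewhere, where it was dim. Its difference of 4.27 ± 0.12 was at least 7.13-fold. PROX1, a homeobox factor of colon tumour progression, measured 12.18 and 11.85 in SW620, 7.21 and 7.71 in HT29 and 6.72 and 5.98 in HCT116. ASCL2, a factor of intestinal stem cells, differed by 2.45 ± 0.27 and SP5, a direct target of beta-catenin, by 1.32 ± 0.11. Among receptors and secreted proteins, LGR6, an R-spondin receptor, differed by 1.90 ± 0.11, TNFRSF19 by 2.19 ± 0.09, FZD10, a Wnt receptor, by 1.64 ± 0.14 and SMOC2, a matrix protein of intestinal stem cells, by 3.48 ± 0.09. In each of these genes both SW620 arrays lay above all 4 others, a lack of overlap shared by all 1046 genes past the threshold. KREMEN1, a receptor for Dickkopf proteins that the list does not hold, was named after its values were seen and differed by 2.16 ± 0.29 (limma adjusted p = 0.0295), a call lost with the line as a random block (adjusted p = 0.131).

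The 3 lower members were CD44, DKK1 and FZD7. CD44, the hyaluronan receptor, measured 10.69 and 10.87 in SW620, 13.78 and 13.59 in HT29 and 13.70 and 13.68 in HCT116, a difference of -2.91 ± 0.11. DKK1, a secreted Wnt inhibitor, measured 11.07 and 10.63 in SW620, 12.82 and 12.91 in HT29 and 13.56 and 13.63 in HCT116. FZD7, a Wnt receptor, was dim in SW620 at 7.27 and 7.03 and measured 8.54 to 9.20 elsewhere. All 3 were below the comparison lines on both SW620 arrays, as was every lower gene past the threshold.

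Several well-known members were graded over the 3 lines and did not pass. LGR5, the receptor that marks intestinal stem cells, measured 12.71 and 12.71 in SW620, 10.30 and 9.86 in HT29 and 6.20 and 6.04 in HCT116. With the line as a factor, SW620 was above each line past the threshold, by 2.63 against HT29 (limma adjusted p = 6.59e-05) and by 6.59 against HCT116 (limma adjusted p = 9.48e-06). AXIN2, which builds the complex that destroys beta-catenin, measured 12.56 and 12.64 in SW620, 11.20 and 11.16 in HT29 and 9.54 and 9.51 in HCT116. MYB was graded in the same order, and ZNRF3, an inhibitor that removes Wnt receptors, was 0.49 above HT29 and 1.86 above HCT116. VSNL1, a calcium sensor, measured 13.13 and 13.12 in SW620, 6.79 and 6.31 in HT29 and 10.92 and 10.95 in HCT116. By this measure 19 of the 35 genes were above both lines and 3 below both, against 12.4% and 10.1% of all genes tested. SOX9, an epithelial progenitor factor, measured 11.34 to 11.75 on all 6 arrays, BMP4 12.95 to 13.58, and RNF43 10.90 and 10.94 in SW620 between 12.18 and 12.02 in HT29 and 10.58 and 10.46 in HCT116.

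**Figure D2:**
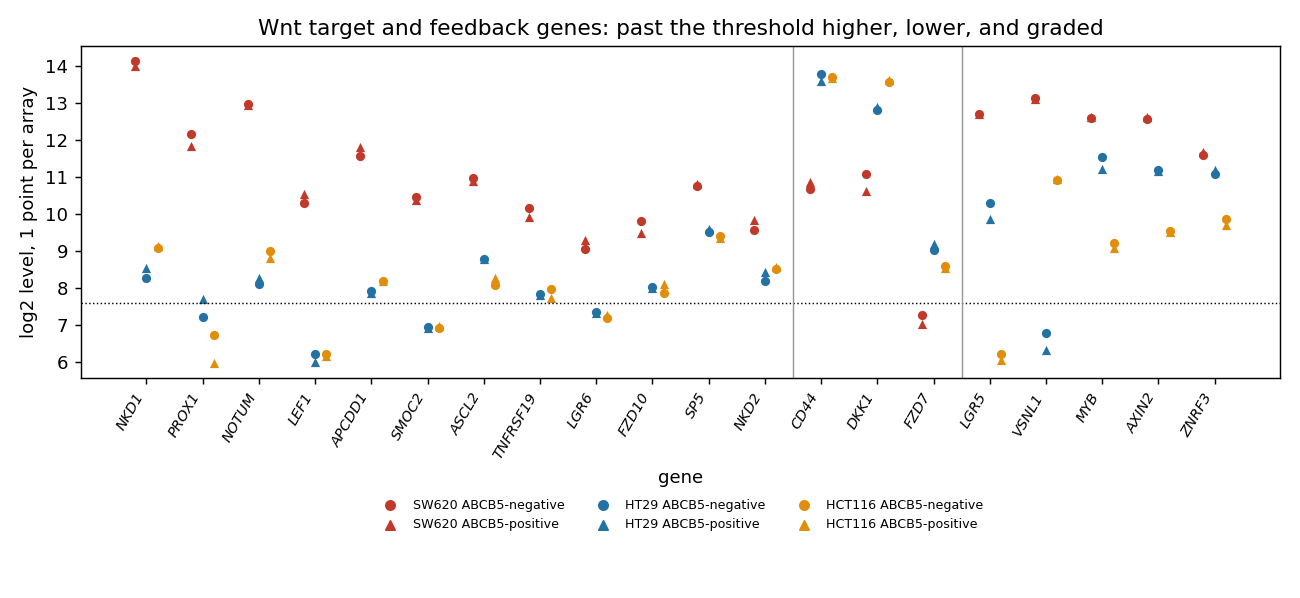
Log2 level (vertical axis) of Wnt target and feedback genes, 1 point per array, with SW620 in red, HT29 in blue, HCT116 in orange, circles for ABCB5-negative and triangles for ABCB5-positive cells, and the dotted line at 7.59, the 95th percentile of olfactory receptor probe sets. The 12 genes at the left have both SW620 arrays above all others, the 3 in the middle have them below, and in the 5 at the right, from LGR5 to ZNRF3, HT29 and HCT116 also stand apart.

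SP5 is shown because its promoter window was the only 1 of 10 from the higher Wnt genes that held a TCF/LEF core, here the letters CTTTGAT or CTTTGAA on either strand. The window is chr2:170715087-170715386 of GRCh38.p14, from RefSeq, on the plus strand, 250 bases before to 50 after the start, and capitals mark the 3 matches.
SP5: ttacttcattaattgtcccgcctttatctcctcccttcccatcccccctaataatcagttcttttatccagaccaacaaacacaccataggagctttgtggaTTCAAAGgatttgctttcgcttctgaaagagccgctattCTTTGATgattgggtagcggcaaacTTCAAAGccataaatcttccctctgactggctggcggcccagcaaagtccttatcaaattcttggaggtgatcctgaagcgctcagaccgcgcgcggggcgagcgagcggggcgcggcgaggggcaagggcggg
Of 18644 promoter windows of genes tested, 946 (5.07%) held these letters. The 10 windows belong to APCDD1, LEF1, LGR6, NKD2, SMOC2, SP5 and TNFRSF19. Windows of the other higher Wnt genes, NKD1, NOTUM, ASCL2, PROX1 and FZD10, were not available and were not searched. A match is a description of the letters and not a binding site.

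Of 39 epithelial junction genes tested, 5 were lower in SW620, 1 was higher and 33 did not pass, with a median difference of -0.72 against -0.06 over all genes. The share past the threshold was 15.4% against 6.24%. RAB25 and CLDN7 also passed with the line as a random block, unlike the other 4 (adjusted p of 0.0548 to 0.312). RAB25, a small GTPase of membrane recycling in epithelia, measured 6.30 and 6.12 in SW620, 12.60 and 12.67 in HT29 and 11.87 and 11.88 in HCT116. It was dim in SW620 and bright elsewhere, at least 25.4-fold lower (difference -6.05 ± 0.32, limma adjusted p = 0.00348). CLDN7, a tight junction claudin, measured 8.20 and 8.72 in SW620, 13.16 and 13.08 in HT29 and 13.01 and 12.90 in HCT116, 23.8-fold lower. DSC2, a desmosomal cadherin, measured 7.34 and 8.03 in SW620 and 11.43 to 12.16 elsewhere. PRSS8, the protease prostasin of epithelial surfaces, measured 7.34 and 7.12 against 10.06 to 11.17. TJP1, the scaffold of tight junctions, differed by only -0.63 ± 0.11 (limma adjusted p = 0.0468). DSP, desmoplakin, ran the other way, with 12.63 and 12.55 in SW620 against 11.49 to 11.83, a difference of 0.93 ± 0.15.

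Further junction genes and their regulators were below both lines without passing the comparison. GRHL2, a factor that maintains epithelial genes, measured 6.29 and 7.26 in SW620, 11.35 and 11.71 in HT29 and 9.76 and 9.76 in HCT116. OVOL1, another such factor, measured 7.89 and 7.56 in SW620 and 9.16 to 10.65 elsewhere. ST14, the protease matriptase, measured 10.04 and 11.66 in SW620, 13.01 and 13.18 in HT29 and 12.27 and 12.20 in HCT116. By the fit with the line as a factor 14 of the 39 were below both lines and 3 above both, against 10.1% and 12.4% of all genes tested. CDH1, E-cadherin, measured 9.98 and 11.46 in SW620, 13.25 and 13.19 in HT29 and 11.26 and 11.19 in HCT116, so that SW620 and HCT116 overlapped. EPCAM measured 13.32 to 13.77 on all 6 arrays. KRT8, KRT18 and KRT19, the keratins of simple epithelium, were bright in all 3 lines. Of 12 keratins tested 0 passed in limma (adjusted p = 0.0582 for KRT5 and 0.174 for KRT15), against 6.24% of all genes. With the line as a factor 1 keratin was above both lines and 2 were below both.

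The promoter windows of RAB25 and CLDN7 are shown because these were the junction genes that passed under both error terms and because both held CAGGTG, an E-box core that SNAI2 and ZEB1 are known to bind. They lie at chr1:156060910-156061209 on the plus strand and chr17:7262429-7262728 on the minus strand of GRCh38.p14, from RefSeq. Capitals mark CAGGTG on either strand, 2 matches in RAB25 and 5 in CLDN7.
RAB25: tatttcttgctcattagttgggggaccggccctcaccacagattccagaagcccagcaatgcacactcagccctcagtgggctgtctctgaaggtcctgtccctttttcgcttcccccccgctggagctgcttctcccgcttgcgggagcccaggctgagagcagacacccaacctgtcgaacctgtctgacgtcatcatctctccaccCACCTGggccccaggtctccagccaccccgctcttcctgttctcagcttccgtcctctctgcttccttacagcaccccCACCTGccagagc
CLDN7: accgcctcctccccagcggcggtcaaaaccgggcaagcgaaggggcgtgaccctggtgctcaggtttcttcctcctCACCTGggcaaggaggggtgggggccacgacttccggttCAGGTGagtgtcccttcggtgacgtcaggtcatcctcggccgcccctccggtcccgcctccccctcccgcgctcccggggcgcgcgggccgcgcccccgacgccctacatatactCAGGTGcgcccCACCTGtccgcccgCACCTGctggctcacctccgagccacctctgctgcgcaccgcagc
Of 18644 windows of genes tested, 3707 (19.9%) held CAGGTG, and of the 9 windows found for CLDN7, DSC2, RAB25 and TJP1, 4 did. TJP1 has 4 of these windows and CLDN7 and DSC2 have 2 each, and no window of PRSS8 was available. Among the 10 windows of the higher Wnt genes, 1 held CAGGTG, that of NKD2. Here too a match describes the letters and is not a binding site, and binding by SNAI2 or ZEB1 was not tested.

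Of 34 mesenchymal genes and regulators, 4 were higher, 1 was lower and 29 did not pass, with a median difference of 0.08. In all 14.7% passed, against 6.24% of all genes. VIM, the intermediate filament vimentin, measured 13.60 and 13.43 in SW620, 7.08 and 7.43 in HT29 and 8.37 and 8.27 in HCT116, 53.01-fold higher (difference 5.73 ± 0.46, limma adjusted p = 0.00908). SNAI2, a repressor of epithelial genes, measured 11.33 and 11.62 in SW620, 6.46 and 6.83 in HT29 and 8.02 and 8.11 in HCT116. WIPF1, which acts on actin through WASP proteins, measured 11.17 and 10.84 against 7.35 to 7.74. S100A4 differed by 1.57 ± 0.25, although its ABCB5-positive HT29 array, at 11.10, came close to SW620. VIM and WIPF1 also passed with the line as a random block, whereas SNAI2, S100A4 and CCN2 did not (adjusted p of 0.0595 to 0.483). The fibroblast marker LUM, given above, was also higher than in HT29 and in HCT116, and its part in these differences was not tested.

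CCN2, a matricellular protein, was lower, with a difference of -0.84 ± 0.12. ZEB1, the other repressor, measured 10.65 and 10.07 in SW620, 6.91 and 7.22 in HT29 and 8.95 and 9.05 in HCT116, above both lines without passing. ZEB2 measured 6.60 to 7.40 on all arrays and CDH2, N-cadherin, 6.35 to 6.69, both dim in all 3 lines. Levels of TWIST1 were 8.42 to 9.12. FN1, fibronectin, measured 10.78 and 8.995 in SW620, 6.65 and 7.09 in HT29 and 8.70 and 8.56 in HCT116. The ABCB5-positive SW620 array thus had less FN1 and ZEB1 and more CDH1 and ST14 than the ABCB5-negative one, which with 1 array each has no test.

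**Figure D3:**
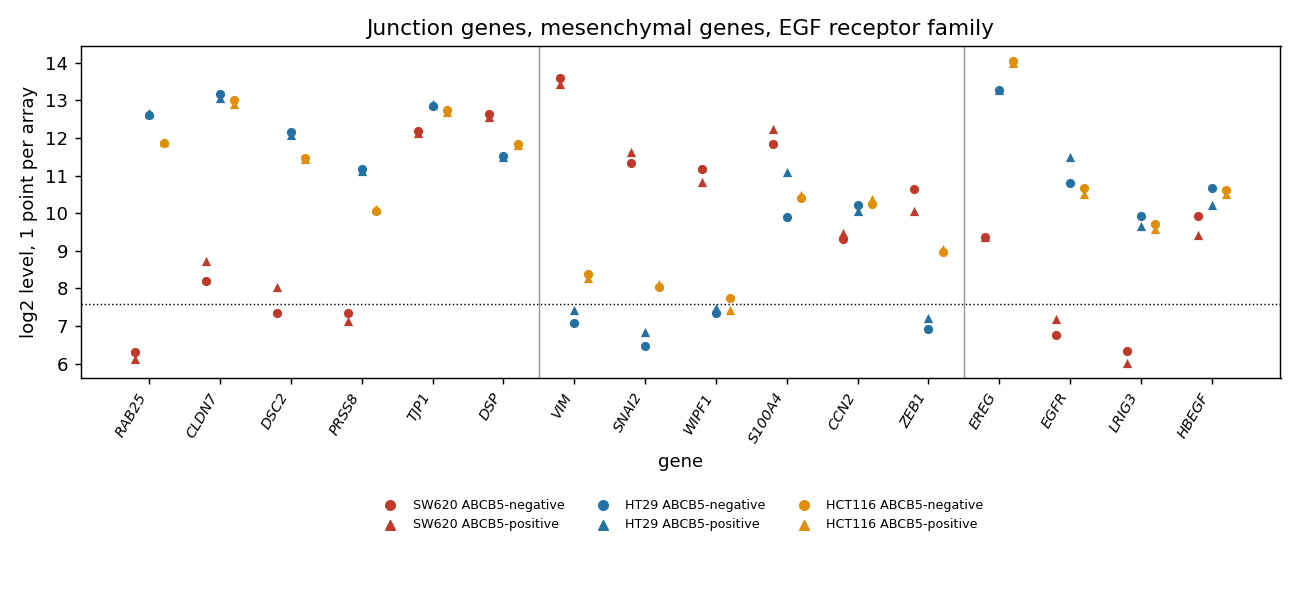
Log2 level (vertical axis) of junction genes (left), mesenchymal genes (middle) and genes of the EGF receptor family (right), 1 point per array, with SW620 in red, HT29 in blue, HCT116 in orange, circles for ABCB5-negative and triangles for ABCB5-positive cells, and the dotted line at 7.59. SW620 was near or under the dotted line for RAB25, DSC2, PRSS8, EGFR and LRIG3 and above the others for VIM, SNAI2 and WIPF1.

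Of 17 genes of the EGF receptor family and its ligands, 4 were lower, 0 were higher and 13 did not pass in limma. The median difference was -0.61, and the share past the threshold was 23.5% against 6.24%. EGFR, the receptor, measured 6.76 and 7.19 in SW620, 10.80 and 11.49 in HT29 and 10.66 and 10.52 in HCT116. It was dim on both SW620 arrays, at least 9.71-fold lower (difference -3.89 ± 0.30, limma adjusted p = 0.00811). EREG, its ligand epiregulin, measured 9.38 and 9.36 in SW620 and 13.28 to 14.05 elsewhere, with HCT116 above HT29, 19.4-fold lower. HBEGF, another ligand, differed by -0.83 ± 0.13. LRIG3, a membrane protein that acts on growth factor receptors, measured 6.34 and 6.02 in SW620 and 9.59 to 9.93 elsewhere. EREG and LRIG3 also passed with the line as a random block, whereas EGFR and HBEGF did not (adjusted p = 0.0579 and 0.395). ERBB2 measured 8.96 and 9.40 in SW620 and 10.08 to 10.49 elsewhere and did not pass (adjusted p = 0.0523). ERRFI1, an inhibitor of the receptor, measured 11.32 and 10.69 in SW620, 12.50 and 12.67 in HT29 and 13.55 and 13.52 in HCT116, and TGFA 9.73 and 10.13 in SW620 against 10.49 to 10.92. ERBB3 in SW620 lay between the other lines.

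Among 43 other receptor tyrosine kinases, ligands and related genes, 5 were higher, 3 were lower and 35 did not pass, with a median difference of -0.14. In all 18.6% passed, against 6.24% of all genes. IGF2BP1, an RNA-binding protein of fetal tissue that binds the IGF2 message, measured 11.32 and 11.32 in SW620 and 6.73 to 6.97 elsewhere, at least 13.3-fold higher. PDGFA, a ligand of platelet-derived growth factor receptors, differed by 2.33 ± 0.09, or 5.02-fold. FGF19 measured 11.90 and 12.45 in SW620 and 9.32 to 10.41 elsewhere, and FGF18 differed by 1.81 ± 0.23 and NTRK2, a neurotrophin receptor, by 1.68 ± 0.22. KITLG, the ligand of KIT, measured 7.73 and 7.90 in SW620, 12.02 and 11.91 in HT29 and 13.19 and 13.21 in HCT116. It was 27.3-fold lower in SW620, with HCT116 above HT29. FGFR2 was dim in SW620 at 6.59 and 6.63 against 9.26 to 10.31, and DDR1, a collagen receptor, differed by -1.07 ± 0.10. IGF2BP1, PDGFA and KITLG also passed with the line as a random block, unlike the other 5. MET, the hepatocyte growth factor receptor, measured 12.66 and 12.46 in SW620 and 13.18 to 13.54 elsewhere and did not pass (adjusted p = 0.0683).

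Outputs of the MAP kinase pathway, which runs below these receptors, had 0 of 27 higher and 3 lower in limma, 11.1% against 6.24% of all genes, with a median difference of -0.20. EGR1, an immediate early factor, differed by -0.95 ± 0.12 and SPRY4, a feedback inhibitor, by -0.94 ± 0.12. LIF, a cytokine, was dim in SW620 at 7.14 and 7.53 and measured 8.65 to 9.67 elsewhere. DUSP6, a phosphatase of ERK, measured 11.45 and 11.34 in SW620, 11.41 and 11.45 in HT29 and 12.15 and 12.23 in HCT116. SPRY2 measured 12.12 and 11.94 in SW620, 10.71 and 10.56 in HT29 and 9.04 and 9.03 in HCT116, so that it stood above both lines while SPRY4 stood below both. None of the 3 passed with the line as a random block (adjusted p of 0.146 to 0.303).

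Some genes best known from lymphocytes were higher in SW620. Of 26 T and B lymphocyte genes tested, 4 were higher, 0 were lower and 22 did not pass in limma, with a median difference of 0.08. The share past the threshold was 15.4% against 6.24%. LCP1, the leukocyte actin-bundling protein L-plastin, measured 13.57 and 13.39 in SW620, 6.52 and 6.57 in HT29 and 7.79 and 7.58 in HCT116, 82.5-fold higher (difference 6.37 ± 0.48, limma adjusted p = 0.00768). CD4, the coreceptor of helper T cells, measured 10.19 and 10.43 in SW620 and 7.02 to 7.26 elsewhere, at least 6.61-fold higher. LCK, a kinase of T cell receptor signalling, measured 10.85 and 11.02 in SW620 and 7.90 to 8.12 elsewhere. IL7R, at 7.62 and 7.11 in SW620 and 5.16 to 5.78 elsewhere, was dim on nearly all arrays. LCP1, CD4 and LCK also passed with the line as a random block.

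More genes of this kind were named after their values were seen, and all of the following passed limma's threshold. PRF1, the pore protein perforin of cytotoxic cells, measured 11.39 and 11.25 in SW620, 7.86 and 7.99 in HT29 and 8.47 and 8.61 in HCT116, 8.51-fold higher. CST7, a protease inhibitor of the same cells, measured 11.51 and 12.46 against 8.42 to 8.49. PTPN22, a phosphatase of lymphocytes, measured 9.65 and 9.86 against 4.58 to 5.23. ICAM2 differed by 3.20 ± 0.13, FYN, a kinase related to LCK, by 3.23 ± 0.50, LPXN by 3.03 ± 0.26 and SKAP1, an adaptor of T cells, by 2.58 ± 0.31. SIT1, SPN, CD8B and XCL1 differed by 2.42 ± 0.28, 2.39 ± 0.09, 2.30 ± 0.17 and 2.25 ± 0.16. Over the alternative settings the difference of CD8B ranged from 1.37 to 2.59. Of these 11 genes, PTPN22, PRF1, SPN and ICAM2 also passed with the line as a random block, unlike the other 7 (adjusted p of 0.0552 to 0.247).

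In contrast, CD3D, CD3E, CD3G, CD2 and CD28 lay between 6.30 and 6.90 on all 6 arrays, under the dim limit. ZAP70 measured 7.62 and 8.01 in SW620 and 7.58 to 7.87 elsewhere. LAT measured 11.08 and 11.14 in SW620, 9.63 and 9.50 in HT29 and 8.32 and 8.57 in HCT116 and did not pass (adjusted p = 0.0861). MS4A1, a B cell marker, lay at 6.72 on the ABCB5-positive SW620 array and at 5.62 on the ABCB5-negative one, both dim. PTPRC, the common leukocyte antigen, lay at 4.87 and 6.96 in SW620 and was left out of the tests as dim. In LCP1, CD4, LCK, PRF1 and PTPN22 the ABCB5-negative SW620 array differed from the ABCB5-positive one by at most 0.24 log2 units. The ABCB5-positive array was higher by 0.95 in CST7, 0.93 in SIT1 and 0.55 in CD8B, while IL7R and LPXN differed by -0.51 and -0.47.

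Phagocyte genes moved with 1 SW620 array. The summed linear level of 10 phagocyte markers was 2929 on the ABCB5-negative SW620 array and 6445 on the ABCB5-positive one, 3246 and 3345 in HCT116 and 25266 and 22912 in HT29, where LYZ at 14.42 and 14.27 set the sum. CYBB, the phagocyte oxidase, measured 6.06 and 9.28 in SW620 and 6.66 to 7.17 elsewhere. FCER1G, an Fc receptor chain, measured 6.48 and 8.93 in SW620 and 6.21 to 7.17 elsewhere. CD163 and AIF1 were dim on all 6 arrays. LAPTM5, a lysosomal protein of blood cells, was the 1 of 22 phagocyte genes to pass (4.5%, against 6.24% of all genes). It measured 8.85 and 9.91 in SW620 and 7.35 to 7.60 elsewhere (difference 1.89 ± 0.24, limma adjusted p = 0.0264). The call of LAPTM5 was lost with the line as a random block (adjusted p = 0.353). MUC1, reported below with the differentiation genes, also stood higher on that array, by 1.41. What part of such differences comes with these transcripts was not tested, and in bulk RNA fewer cells of a type and less RNA per cell cannot be told apart.

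**Figure D4:**
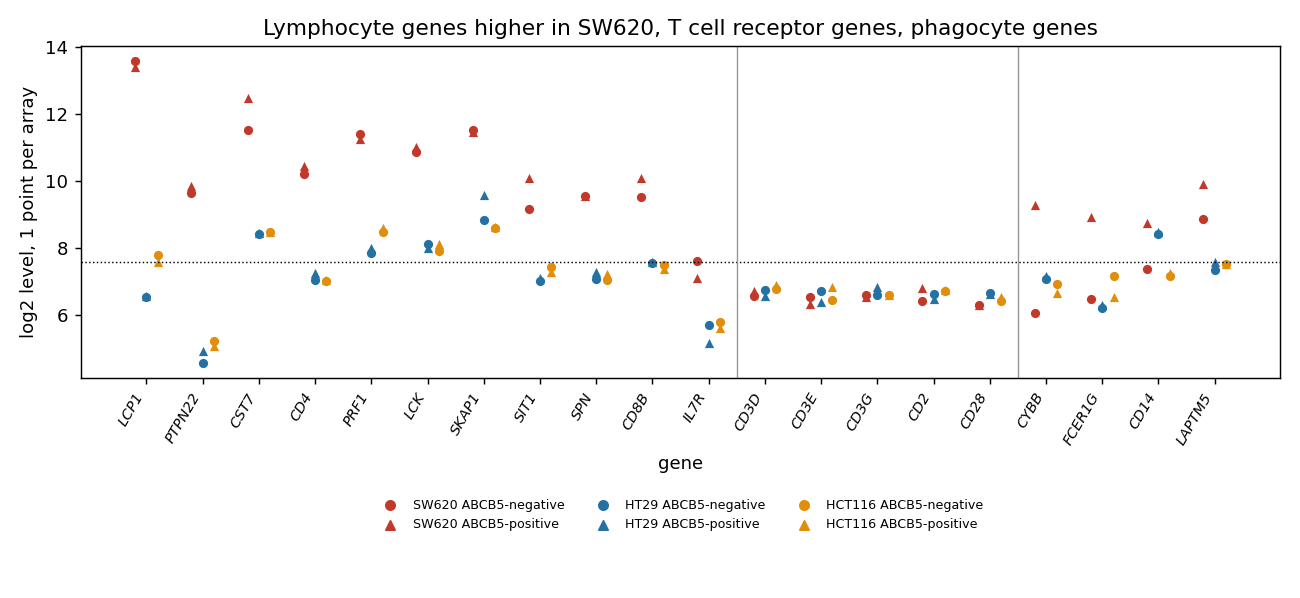
Log2 level (vertical axis) of lymphocyte genes higher in SW620 (left), genes of the T cell receptor complex with CD2 and CD28 (middle) and phagocyte genes (right), 1 point per array, with SW620 in red, HT29 in blue, HCT116 in orange, circles for ABCB5-negative and triangles for ABCB5-positive cells, and the dotted line at 7.59. The genes at the left are high on both SW620 arrays, except IL7R, which measured 7.62 and 7.11 there. Those in the middle lie under the line on all 6, and CYBB and FCER1G at the right are high only on the ABCB5-positive SW620 array.

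Of 50 genes of the nervous system, 9 were higher, 2 were lower and 39 did not pass, with a median difference of -0.03. The share past the threshold was 22.0% against 6.24%. ELAVL2, a neuronal RNA-binding protein, measured 10.01 and 10.06 in SW620 and 5.67 to 6.15 elsewhere, at least 5.46-fold higher. NRCAM, a neuronal adhesion protein, measured 8.83 and 8.69 in SW620 and 5.54 to 5.83 elsewhere. SYT11, a synaptotagmin, differed by 3.28 ± 0.17, NRP2, a semaphorin receptor, by 2.96 ± 0.29 and ROBO2 by 2.52 ± 0.22. The mediators of axon growth CRMP1 and DPYSL2 differed by 2.13 ± 0.12 and 1.96 ± 0.19 and GAP43, a growth cone protein, by 1.59 ± 0.14. The lower pair were secreted or membrane semaphorins, SEMA3C at 7.86 and 7.85 in SW620 against 10.22 to 11.53, and SEMA4D with a difference of -1.24 ± 0.16. ROBO1, ELAVL2, NRCAM and CRMP1 also passed with the line as a random block, unlike the other 7 (adjusted p of 0.0556 to 0.175). Of the 50 genes, 16 were dim in both groups. By the fit with the line as a factor 17 were above both lines and 4 below both, against 12.4% and 10.1% of all genes tested.

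Stem and tumour-initiating cell markers had 2 of 21 higher, SOX2 and SMOC2, and 3 lower, CD44, ALCAM and KLF4, with a median difference of -0.13. Together these were 23.8% of the list, against 6.24% of all genes. ALCAM, an adhesion protein, measured 8.70 and 8.81 in SW620, 11.54 and 11.27 in HT29 and 12.28 and 12.35 in HCT116. KLF4, a factor of differentiated epithelium, differed by -1.38 ± 0.20. SOX2, SMOC2 and CD44 passed with the line as a random block. PROM1, the marker CD133, measured 10.13 and 10.55 in SW620, 11.60 and 11.80 in HT29 and 10.70 and 10.51 in HCT116, so that SW620 and HCT116 overlapped. Of 29 ABC transporters, 1 (3.45%, against 6.24% of all genes tested), ABCD4, was higher, by 0.67 ± 0.10, a call lost with the line as a random block (adjusted p = 0.261). The drug transporter ABCB1 measured 8.50 and 8.01 in SW620 and 6.32 to 7.43 elsewhere, and ABCG2 5.89 and 6.03 in SW620, 11.29 and 10.93 in HT29 and 7.59 and 7.43 in HCT116. Neither passed (adjusted p of 0.161 and 0.268).

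HOX genes, which set position along the body axis, had 4 of 27 higher and 0 lower in limma, against 3.94% higher and 2.30% lower over all genes, with a median difference of -0.03. In all 14.8% of the list passed. HOXC10 measured 10.73 and 10.91 in SW620, 7.14 and 7.03 in HT29 and 7.61 and 7.74 in HCT116. HOXC13 of the same cluster differed by 1.56 ± 0.12, HOXD9 by 1.23 ± 0.08 and HOXD10, dim on all arrays at 6.53 to 7.20, by 0.57 ± 0.08. HOXC10 also passed with the line as a random block, unlike the other 3 (adjusted p of 0.0595 to 0.321).

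The series title ties ABCB5 to resistance against apoptosis, so the genes of cell death are given as list counts with some of their members. Of 28 genes of the BCL2 and IAP families and the apoptosome, 2 were higher, 2 were lower and 24 did not pass, with a median difference of -0.15. In all 14.3% passed, against 6.24% of all genes. APAF1 and CASP9, which form the apoptosome, differed by 0.75 ± 0.09 and 0.86 ± 0.11. BAK1, which opens the mitochondrial membrane, differed by -0.63 ± 0.09, and its relative BOK by -1.65 ± 0.10. BOK measured 8.85 and 8.79 in SW620 and 10.34 to 10.55 elsewhere and also passed with the line as a random block, where the other 3 did not (adjusted p of 0.187 to 0.257). Among the inhibitors, BCL2 measured 7.76 to 8.42 over the 6 arrays, BCL2L1 12.82 to 13.20 and MCL1 11.79 to 12.39, and none passed.

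Of 23 death receptor genes, 2 were higher and 1 was lower, 13.04% against 6.24% of all genes, with a median difference of -0.06. TNFRSF1B, the second receptor of tumour necrosis factor, measured 11.42 and 11.41 in SW620 and 7.84 to 7.97 elsewhere, 11.4-fold higher (difference 3.52 ± 0.08, limma adjusted p = 0.000918). TRAF5, an adaptor of such receptors, differed by 2.78 ± 0.11. TNFRSF1A, the main receptor of tumour necrosis factor, differed by -0.65 ± 0.10 and, unlike the other pair, was lost with the line as a random block (adjusted p = 0.269). TNFSF10, the ligand TRAIL, measured 11.53 and 11.22 in SW620, 9.65 and 9.28 in HT29 and 6.09 and 6.14 in HCT116. FAS was dim in SW620 at 7.44 and 7.57 and measured 8.15 and 8.48 in HT29 and 9.71 and 9.83 in HCT116. CASP8, the caspase these receptors activate, measured 9.55 and 9.79 in SW620 and 10.62 to 11.15 elsewhere, and none of the last 3 passed (adjusted p of 0.0580 to 0.227).

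Targets of p53 had 1 of 27 higher and 3 lower, 14.8% against 6.24% of all genes, with a median difference of -0.52 against -0.06 over all genes. TP53I3 differed by 1.23 ± 0.19. SERPINB5, the serpin maspin of epithelia, measured 5.47 and 6.57 in SW620, 11.27 and 11.05 in HT29 and 9.67 and 9.68 in HCT116. GDF15 differed by -0.87 ± 0.11 and PHLDA3 by -0.87 ± 0.15. None of the 4 kept its call with the line as a random block (adjusted p of 0.118 to 0.289), and by the fit with the line as a factor 12 of the 27 were below both lines, against 10.1% of all genes tested.

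TGF-beta and BMP signalling genes had 1 of 37 higher, INHBB, an activin subunit, by 0.90 ± 0.11, and 3 lower, 10.8% against 6.24% of all genes, with a median difference of -0.01. ACVR1, a BMP receptor, differed by -1.72 ± 0.26 and ID1, a BMP target, by -1.11 ± 0.12, and the third was GDF15. None of these 4 passed with the line as a random block (adjusted p of 0.104 to 0.245). SMAD4, the shared mediator of the pathway, measured 7.51 and 8.05 in SW620, 9.50 and 9.32 in HT29 and 12.19 and 12.21 in HCT116. SW620 was below each line past the threshold, by -1.63 against HT29 and -4.42 against HCT116, without passing the pooled comparison (adjusted p = 0.218). BAMBI, a decoy receptor, measured 12.76 and 12.82 in SW620, 7.51 and 7.69 in HT29 and 9.72 and 9.58 in HCT116. BMP7 measured 11.61 and 11.99 in SW620, 7.68 and 7.40 in HT29 and 9.28 and 9.05 in HCT116, and both were above each line with an adjusted p of 0.0708 and 0.0684 in the pooled comparison.

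Integrins and laminins had 1 of 27 higher, ITGA7, by 1.05 ± 0.14, and 2 lower, ITGA3 and CD44, in all 11.1% against 6.24% of all genes, with a median difference of -0.33. ITGA7 lost its call with the line as a random block (adjusted p = 0.309). ITGA3, a laminin receptor subunit, measured 8.31 and 8.71 in SW620 and 11.76 to 12.01 elsewhere, 10.1-fold lower, and also passed with the line as a random block. In ITGA2, ITGAV and ITGB1, as in 25.4% of all genes tested, SW620 was below all 4 other arrays. None of the 3 passed (limma adjusted p of 0.0666 to 0.0922). ITGB1, the shared beta subunit, measured 12.03 and 11.97 in SW620 and 12.42 to 12.59 elsewhere. Proteases and genes of plasminogen activation had 0 of 35 higher and 3 lower in limma, 8.57% against 6.24% of all genes, with a median of -0.24. PLAUR, the urokinase receptor, measured 8.84 and 9.41 in SW620 and 11.63 to 12.12 elsewhere. MMP15, a membrane metalloprotease, differed by -1.79 ± 0.26, and the third was SERPINB5. With the line as a random block none of these 3 passed (adjusted p of 0.0910 to 0.164).

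Differentiation genes of the colon passed in 10.5% of intestinal transcription factors, 7.14% of enterocyte genes and 9.52% of goblet and secretory genes, against 6.24% of all genes tested. Of 19 intestinal transcription factors, PRDM1, a repressor active in fetal gut and plasma cells, was higher by 3.03 ± 0.10, with 10.05 and 10.38 in SW620 and 6.99 to 7.38 elsewhere, and KLF4 was lower. CDX2 measured 9.01 and 9.02 in SW620 and 9.03 to 10.03 elsewhere. Of 28 enterocyte genes, CA2, a carbonic anhydrase of the colon surface, measured 7.17 and 7.40 in SW620, 11.05 and 10.32 in HT29 and 11.12 and 11.16 in HCT116, and CDHR2, a brush border cadherin, differed by 0.93 ± 0.09. Of 21 goblet and secretory genes, MUC1 was higher with 9.46 and 10.87 in SW620 and 7.70 to 8.02 elsewhere, and CHGB, a granin of endocrine cells, with 9.70 and 8.85 against 6.82 to 7.17. KRT20, CEACAM5, CEACAM6 and LGALS4, genes of the mature colon surface, were bright in HT29 and far lower in the other lines, as with KRT20 at 6.71 and 6.67 in SW620, 12.87 and 13.01 in HT29 and 7.18 and 7.13 in HCT116. VIL1, villin, measured 12.29 and 12.55 in SW620, 11.72 and 11.65 in HT29 and 7.14 and 7.52 in HCT116.

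In metabolism, NRF2 and glutathione genes had 0 of 33 higher and 4 lower in limma (12.1% of the list, against 2.30% lower over all genes), with a median difference of -0.10. All 4 were lost with the line as a random block (adjusted p of 0.0997 to 0.403). TXNRD1, thioredoxin reductase, differed by -1.06 ± 0.08, ME1 by -0.70 ± 0.11, GCLM, of glutathione synthesis, by -0.67 ± 0.10 and TKT by -0.59 ± 0.09. These were small steps with close arrays, as in TXNRD1 at 11.32 and 11.40 in SW620 and 12.38 to 12.44 elsewhere. Cholesterol and fatty acid genes had 0 of 31 higher and 3 lower in limma (9.68%). ACSL5, which activates fatty acids, measured 9.19 and 9.20 in SW620, 13.46 and 13.56 in HT29 and 12.57 and 12.57 in HCT116, 14.4-fold lower, and also passed with the line as a random block. INSIG1 and ELOVL6 differed by -1.43 ± 0.22 and -0.97 ± 0.11. Among 25 genes of aldehyde and retinoid metabolism, STRA6, which carries retinol into cells, was higher by 3.29 ± 0.13. DHRS3, a retinal reductase, and RARG, a retinoic acid receptor, were lower, with differences of -2.29 ± 0.11 and -1.99 ± 0.24. Of that list 12.0% passed, against 6.24% of all genes.

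Glycolysis and hypoxia genes had 2 of 32 higher, ENO3 by 1.20 ± 0.13 and ANKRD37 by 0.60 ± 0.08, and 1 lower. Together these were 9.38% of the list, against 6.24% of all genes. The lower gene was VEGFA, the endothelial growth factor, at 8.69 and 9.57 in SW620 and 10.53 to 10.74 elsewhere. Among 31 serine synthesis and ATF4 genes 6.45% passed. PSPH, the last enzyme of serine synthesis, was higher by 1.08 ± 0.13 and AARS1 by 0.84 ± 0.10. S100 and annexin genes had S100A4 higher and S100A14 and ANXA1 lower, of 24 tested (12.5%). S100A14 measured 7.59 and 7.75 in SW620 and 10.09 to 10.17 elsewhere. Cell cycle genes had 2 of 40 (5.0%) past the threshold, CDK6 higher by 1.27 ± 0.09 and CCNA2, cyclin A, lower with a difference of -0.65 ± 0.09. Of 14 mismatch repair and methylation genes 1 (7.14%, against 6.24%) passed, TET2, an enzyme of DNA demethylation, with a difference of -0.90 ± 0.09. The call of TET2 was lost with the line as a random block (adjusted p = 0.174).

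Of 27 interferon-stimulated genes 2 (7.41%, against 6.24% of all genes) passed. MX2, an antiviral GTPase, measured 9.43 and 9.60 in SW620 and at most 6.80 elsewhere, at least 3.80-fold higher, and IFI35 was lower with a difference of -1.12 ± 0.17. Of 30 NF-kB targets and cytokines 0 were higher and 2 (6.67%), LIF and NFKB1, were lower in limma, NFKB1 with a difference of -0.55 ± 0.09. Of 25 antigen presentation genes 0 passed in limma, with a median difference of -0.01, the smallest p-values belonging to HLA-DMB and PSMB8 (adjusted p of 0.0557 and 0.0689). Of 17 cancer-testis antigens 10 were dim in both groups, and PIWIL1, past the threshold with 7.23 and 7.41 in SW620 and 5.61 to 5.75 elsewhere, was dim on all 6 arrays. Of the genes past the threshold in the differentiation, metabolic, S100, cell cycle, immune response and cancer-testis lists, PRDM1, ACSL5, STRA6, DHRS3, S100A14, MX2 and PIWIL1 also passed with the line as a random block. The others did not, with adjusted p of 0.0816 to 0.483.

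**Figure D5:**
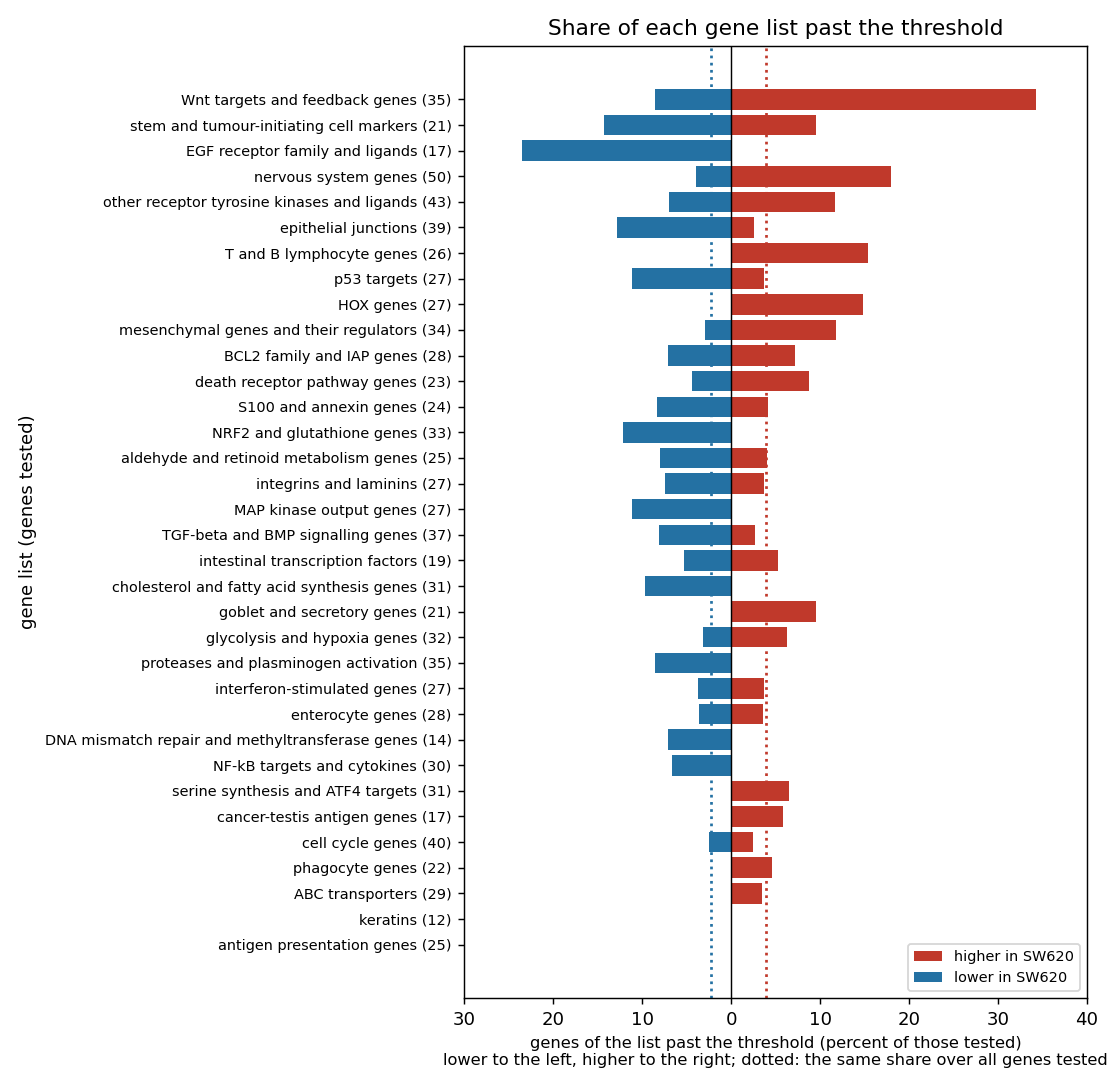
Share of each gene list past the threshold of limma (horizontal axis, percent of the genes tested), higher in SW620 to the right and lower to the left, with the number of genes tested in brackets and dotted lines at the shares over all genes tested, 3.94% higher and 2.30% lower. The Wnt list reaches farthest to the right and the EGF receptor family, with 4 of 17 genes, farthest to the left.

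MIR31, the hairpin of a microRNA that is often raised in colorectal tumours, was among the lower genes and was named after its values were seen. It measured 6.65 and 6.18 in SW620, 7.72 and 7.33 in HT29 and 7.78 and 7.76 in HCT116, a difference of -1.23 ± 0.16 (limma adjusted p = 0.0267). All 6 values lay near the dim range, the probe set does not separate the arms of the hairpin, and the call was lost with the line as a random block (adjusted p = 0.236). The arm of this hairpin with the most common use is shown with its seed, bases 2 to 8, in capitals, from RefSeq at chr9:21512158-21512178 of GRCh38.p14 on the minus strand.
hsa-miR-31-5p: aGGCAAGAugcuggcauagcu

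Beyond the genes that passed, 3776 genes (22.5%) lay outside both lines with the line as a factor, 2083 above both and 1693 below both, among them all 1046. The other 2730 did not pass the pooled comparison, and 294 of them differed at least 2-fold from each line. LGR5, AXIN2, BAMBI, BMP7, SMAD4, GRHL2 and ZEB1 are examples given above. DPYSL3, a relative of DPYSL2, measured 12.29 and 12.16 in SW620, 7.74 and 7.97 in HT29 and 10.09 and 10.12 in HCT116. FOXA2, an endoderm factor, measured 11.44 and 11.31 in SW620, 10.01 and 9.86 in HT29 and 8.002 and 8.42 in HCT116, and SEMA3A 13.20 and 13.27, 11.08 and 11.51, and 9.82 and 9.89. In these 3 genes SW620 was the highest of the lines and the order of HT29 and HCT116 varied.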

How the data were processed

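RNA of FACS-sorted populations labelled ABCB5-negative and ABCB5-positive was measured on 8 arrays of 4 lines, of which the 6 of SW620, HT29 and HCT116 were compared and COLO741 was left out. The authors deposited log2 expression values for 33297 probe sets, made with Affymetrix Expression Console per the submitters' processing notes. The version, summarisation, background correction and normalization were not given in the sources used here, and the log2 scale was read from the range of 2.99 to 15.24. Array medians lay between 8.03 and 8.10, and the values were used as deposited. The number of arrays limits the precision.

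Gene names came from the platform annotation, with symbols updated through RefSeq gene identifiers of GRCh38.p14. Of them 19460 named 1 gene, of which 19429 matched an identifier and 31 did not, 1754 named several genes and 12083 were unnamed, and the last 2 kinds were not used. For 769 of 18417 genes with several probe sets the one with the highest mean over 8 arrays was taken. The 1649 genes with a mean over the 6 arrays under the median of olfactory receptor probe sets were left out, and 16768 were tested.

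Per gene, limma 3.58.1 in R 4.3.3 compared the 2 SW620 arrays with the 4 others, with the sorted population as covariate, two-sided moderated tests, and p-values adjusted by Benjamini-Hochberg over all genes tested at 0.05. The model left 3 residual degrees of freedom. A second fit had the line as a factor, and a gene was counted outside both lines where both contrasts passed with 1 sign. The scripts were tested on simulated data that held no difference between HT29 and HCT116. That test does not show how the pooled comparison behaves where these lines differ. Alternatives changed the error term, covariate, arrays, normalization, filter, probe set rule and threshold.

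Genes were named by a rule: the 15 largest differences per direction past the threshold without overlap and bright in the higher group, up to 5 members past the threshold per list, the smallest p-values up to 2 where fewer passed, ABCB5 and all cell type markers. Genes outside the rule were named after their values were seen, among them the graded genes and those given by their levels alone. The comparison, members and lists were chosen with earlier results of these data known. Promoter windows and the microRNA are from RefSeq.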

Additional observations from a re-analysis of the deposited data

Results flagged for a closer look

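Some of the 266 genes named had 1 of the 4 comparison arrays far from the other 3. The gap to its nearest neighbour was above Dixon's 95% value for 4 samples, which chance alone gives in about 1 in 20 groups. All genes flagged are listed here, and they are no more than that rate would give over 266 genes. Dixon's value also assumes 4 like samples, whereas these arrays come from 2 lines. Among genes lower in SW620, CA2 lay at 10.32 on the ABCB5-positive HT29 array and MIR31 at 7.33 on the same array, both the lowest of the 4, while INSIG1 lay at 10.40, the highest, and DDR1 at 11.47, the lowest, on the ABCB5-negative HT29 array. Among genes higher in SW620, PDGFA lay at 10.20, the lowest, and CD4 at 7.26, the highest, on the ABCB5-positive HT29 array, and PSPH at 11.51, the highest, and PIWIL1 at 5.61, the lowest, on the ABCB5-negative one. CRMP1 lay at 8.34, the highest, on the ABCB5-positive HCT116 array. Of the markers, CD3G lay at 6.84 on the ABCB5-positive HT29 array and CD163 at 5.56 on the ABCB5-negative one, both dim.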

How the results depend on the processing

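The count of 1046 genes past the threshold depended mainly on the error term and on each array. It was 159 with the line as a random block (within-line correlation 0.790), 7857 with the line as a factor, 7140 with the line as a factor over all 8 arrays, 6880 without HT29, 6740 without HCT116 and 635 with a difference of at least 1 log2 unit. With no replicate block, that is, with no sorted population in the model, it was 2101. The differences between the sorted populations correlated between lines at -0.07 to 0.06 across genes. Leaving out each array in turn gave 0 to 318 genes, 0 without either SW620 array and 296 without the ABCB5-positive HCT116 array. The count was 970 to 1091 under a variance trend, quantile normalization, median centring, both other filters and the mean over probe sets. Genes outside both lines numbered 2499 to 3624 with 1 array left out and 3297 to 3917 otherwise.

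Of 147 named genes past the threshold, 57 also passed with the line as a random block. All 147 kept their direction under every alternative. In these genes both SW620 arrays lay beyond all comparison arrays, so leaving out an array or a line could not reverse the direction. The kept direction is therefore no test of the calls. With 2 arrays of SW620 and 2 comparison lines, calls describe these arrays. Dim signal limits the folds given as lower bounds, and 30 of the 1046 genes were dim on all 6 arrays.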

Other observations

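By chromosome, the genes past the threshold were unevenly spread, which is given as a description without a test. On chromosome X, 52 of 604 genes tested (8.61%) were higher in SW620 and 4 (0.66%) lower, with a median difference of 0.11 log2 units. Chromosomes 16 and 12 had 56 of 744 (7.53%) and 58 of 864 (6.71%) higher, against 3.94% over all genes tested. On chromosome 18, 1 of 225 genes (0.44%) was higher and 9 (4.0%) were lower, with a median of -0.21. Chromosome 4 had 35 of 583 (6.0%) lower and chromosome 19 had 45 of 1244 (3.62%) lower, against 2.30% over all genes. The medians against HT29 and against HCT116 taken alone were 0.07 and 0.17 for chromosome X and -0.15 and -0.26 for chromosome 18.

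Genes whose symbol starts with ZNF, the zinc finger family, had 39 of 453 higher and 5 lower, against 3.94% and 2.30% of all genes tested. Probe sets of this family can share sequence between its members. Protocadherin genes had 4 of 35 higher and 0 lower in limma, beside the same shares over all genes.

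Between the sorted populations, 101 genes differed by at least 1 log2 unit in SW620, 50 in HT29 and 5 in HCT116, with 1 array each and no test. Of the 1046 genes past the threshold, 10 differed that much between the SW620 arrays, and CD55, MUC1, SERPINB5 and LAPTM5 were among them.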
